A study of Mus musculus with 12 samples.

Results

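The 7 mouse genes of the Cdkn family, which encode the cyclin-dependent kinase inhibitors, were examined in CD8+ T cells. They were taken by symbol (Cdkn2a, Cdkn2b, Cdkn2c and Cdkn2d, the INK4 members, and Cdkn1a, Cdkn1b and Cdkn1c, the Cip/Kip members), and each of the 7 was found among the 24421 symbols of every count table. The cells came from splenocytes of C57BL/6 mice and formed an EZH2 inhibitor group (EZH2i, n = 6 libraries) and a DMSO control group (n = 6 libraries), all from polyadenylated RNA. EZH2 is the histone methyltransferase of the Polycomb repressive complex PRC2, whose mark on histone H3 keeps genes silent, and DMSO is the usual solvent of such drugs. The sources used here do not name the inhibitor or give its dose, the time of exposure or the ages of the mice, nor do they say whether each library had its own animal. The p-values therefore rest on the spread among the libraries of a group, which could be technical only.

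Progress from G1 into S phase depends on kinases bound to cyclins, which phosphorylate the retinoblastoma protein and free E2F factors. INK4 proteins bind Cdk4 and Cdk6 and keep them from D-type cyclins, while Cip/Kip proteins bind whole cyclin-kinase complexes and restrain those with cyclin E or A most strongly. Cdkn2a is unusual in giving a pair of unrelated proteins from separate first exons: p16, an INK4 protein, and Arf, which binds Mdm2 and so protects p53. The Cdkn2a and Cdkn2b locus is a textbook target of Polycomb silencing in fibroblasts and stem cells. In T cells p27 (Cdkn1b) and p18 (Cdkn2c) are known as brakes on division.

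The windows around the annotated starts of the Cdkn2a and Cdkn2b locus are shown because these genes differed most between the groups, and that of Cdkn2d is shown as an abundant INK4 member that was not called. Each runs 5′ to 3′ along the transcribed strand, from 250 bases before to 50 bases after a RefSeq start in build GRCm38.p6. Capitals mark CpG dinucleotides, which are dense at many promoters that Polycomb binds.
Cdkn2a downstream start (p16), chr4:89282143-89282442, minus strand: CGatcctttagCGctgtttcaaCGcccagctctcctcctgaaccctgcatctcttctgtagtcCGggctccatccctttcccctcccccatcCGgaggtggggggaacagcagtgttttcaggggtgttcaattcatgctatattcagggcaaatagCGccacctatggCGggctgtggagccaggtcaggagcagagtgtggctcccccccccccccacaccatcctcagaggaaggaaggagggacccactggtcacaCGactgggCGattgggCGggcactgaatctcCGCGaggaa
Cdkn2a upstream start (Arf), chr4:89294570-89294869, minus strand: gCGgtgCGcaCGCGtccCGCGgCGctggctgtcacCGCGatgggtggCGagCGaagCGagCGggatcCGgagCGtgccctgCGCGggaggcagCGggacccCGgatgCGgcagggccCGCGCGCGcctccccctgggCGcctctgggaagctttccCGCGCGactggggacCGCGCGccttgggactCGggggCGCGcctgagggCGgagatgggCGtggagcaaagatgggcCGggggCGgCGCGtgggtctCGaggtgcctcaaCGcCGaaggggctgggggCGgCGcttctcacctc
Cdkn2b start, chr4:89310983-89311282, minus strand: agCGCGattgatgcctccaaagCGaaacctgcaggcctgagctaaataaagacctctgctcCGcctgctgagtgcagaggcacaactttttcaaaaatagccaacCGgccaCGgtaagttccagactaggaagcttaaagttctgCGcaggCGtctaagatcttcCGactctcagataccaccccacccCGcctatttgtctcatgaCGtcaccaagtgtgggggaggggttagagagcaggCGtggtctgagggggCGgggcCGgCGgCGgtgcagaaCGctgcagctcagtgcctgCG
Cdkn2d start, chr9:21291160-21291459, minus strand: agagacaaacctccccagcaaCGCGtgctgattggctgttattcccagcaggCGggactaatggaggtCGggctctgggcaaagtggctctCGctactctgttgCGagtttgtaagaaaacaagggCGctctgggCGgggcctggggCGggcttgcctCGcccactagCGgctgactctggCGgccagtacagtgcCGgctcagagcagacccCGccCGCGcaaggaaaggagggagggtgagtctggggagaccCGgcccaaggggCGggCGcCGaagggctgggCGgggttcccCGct
The upstream Cdkn2a window held 45 CpGs and the downstream window, 12.4 kb away, held 12. Of all 32851 windows in the table, 98.1% had fewer CpGs than the upstream window, and 60.4% had fewer than the p16 window. The Cdkn2b window held 18 CpGs and the Cdkn2d window 22, against a median of 7 over all windows.

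RefSeq windows were found for 6 of the 7 members, all but Cdkn1c. Cdkn2c and Cdkn1a each had a CpG-rich window, with 33 and 23 CpGs, beside another with 8 and 2, and the Cdkn1b window held 30. The GC box GGGCGG, searched on both strands, was present in 7 of the 9 windows, against 35.7% of all windows. The E2F motif (TTTCGCGC or TTTGGCGC, both strands) and the TATA box TATAAA (both strands) were in none of the 9, against 0.813% and 13.6% of all windows. Each of the 3 members that were not called (Cdkn2c, Cdkn2d and Cdkn1b) had a window with more CpGs than that of Cdkn2b. A match is a description of the sequence alone.

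The library numbered 6 stood apart for most members in both groups. It was the lowest library of its group for Cdkn2c, Cdkn2d, Cdkn1b and Cdkn1c and the highest for Cdkn2a and Cdkn2b, in EZH2i and in DMSO alike. Cdkn1a was highest in EZH2i library 6, while DMSO library 6, at 42.0 CPM, was within the range of the other DMSO libraries. The sources used here do not say what the number stands for, and its part in these levels was not tested. Library totals ran from 19610258 to 31206228 counts in EZH2i and from 17215483 to 28092434 in DMSO.

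Transcripts of 4 members rose with EZH2i: Cdkn2a and Cdkn2b of the INK4 family, and Cdkn1a and Cdkn1c of the Cip/Kip family. Cdkn2c, Cdkn2d and Cdkn1b were not called, and no member fell in the model with the group alone, although a model with the replicate number as a block called Cdkn2d lower (adjusted p = 0.0343). These are bulk libraries, in which fewer cells of a type and less RNA per cell cannot be told apart. Over all 11727 genes tested, 13.3% were called higher and 6.05% lower at an adjusted p under 0.05 (Benjamini-Hochberg over every tested gene) by the quasi-likelihood test of edgeR. Levels are read counts relative to the library total scaled by TMM (CPM), and fold changes are EZH2i over DMSO. The same 4 members and no other had an unadjusted p under 0.05, as 32.4% of all tested genes did, and DESeq2 called no member lower either. With that block 49% of all tested genes were called, 24.7% higher and 24.3% lower. Cdkn2a, Cdkn2b and Cdkn1c had a mean under 10 CPM, a limit chosen with the values known, and 29.6% of all tested genes under it were called higher, against 7.24% of those at or over it. All 7 members passed the filter on low counts, which asked for 0.409 CPM in at least 6 libraries. Cdkn2b reached this limit in 6 EZH2i libraries and 1 DMSO library, Cdkn1c in 5 and 1, and Cdkn2a in 6 and 5. None of these would have passed on its DMSO libraries alone. The number of members that passed therefore supports nothing.

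**Figure D1:**
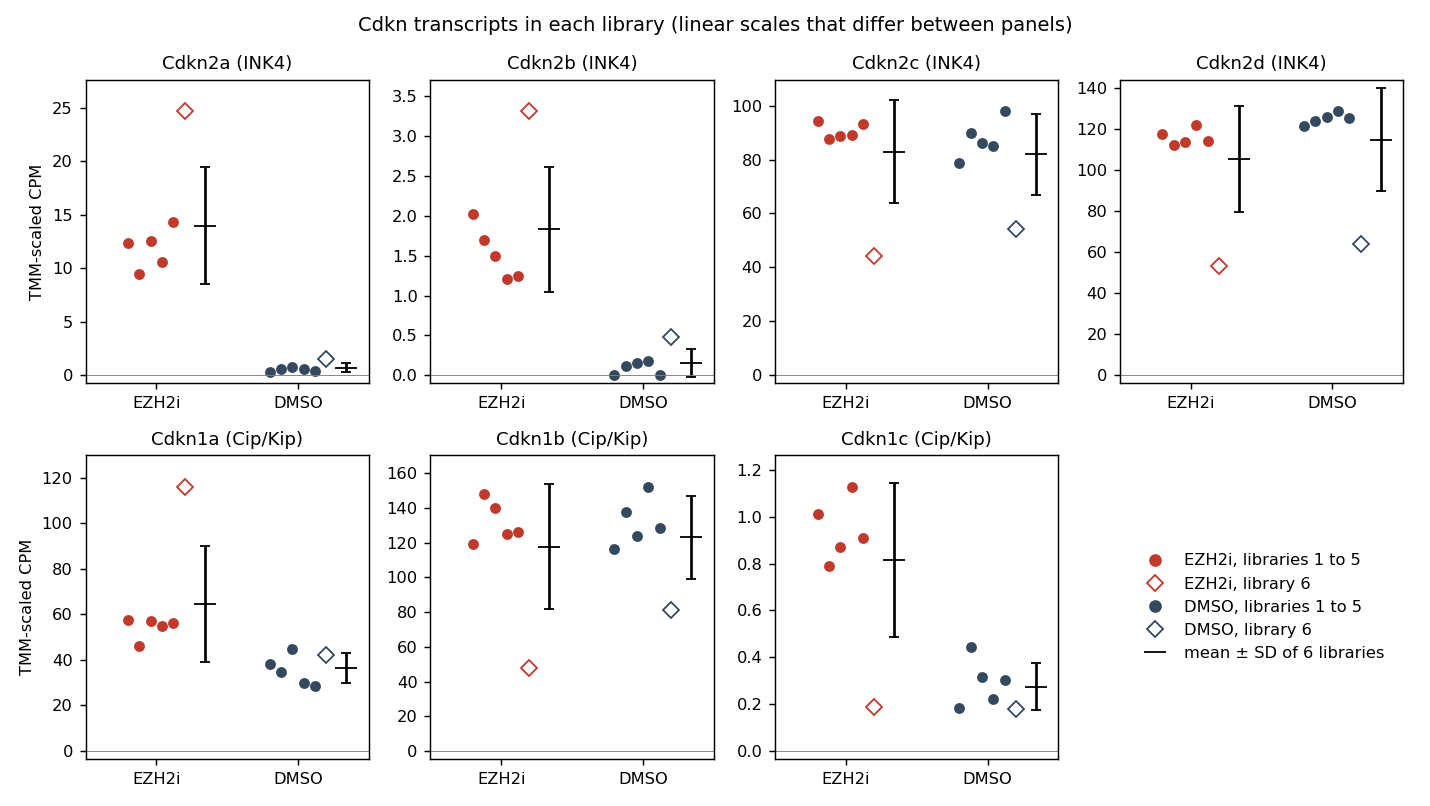
TMM-scaled CPM of each member (vertical axes, linear, 1 scale per panel) in the 6 EZH2i and 6 DMSO libraries; points are libraries, open diamonds the library numbered 6, and bars the mean ± SD. Cdkn2a, Cdkn2b and Cdkn1a show no overlap between the groups, and Cdkn1c overlaps through EZH2i library 6 alone. Cdkn2c and Cdkn1b overlap widely. Library 6 is the lowest of its group for Cdkn2c, Cdkn2d and Cdkn1b, in EZH2i and in DMSO. Apart from library 6, Cdkn2d overlaps only through EZH2i library 4 (121.7 CPM) and DMSO library 1 (121.3 CPM).

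Cdkn2a (ENSMUSG00000044303.6, chromosome 4 from 89274471 to 89294653 in GRCm38, minus strand) was nearly silent in control cells. It ranged from 9.46 to 24.6 CPM in EZH2i libraries with a median of 12.5, against 0.323 to 1.49 CPM in DMSO libraries with a median of 0.590. All 6 EZH2i libraries lay above all 6 DMSO libraries, a separation that 7.5% of tested genes showed in this direction and 2.74% in the other. The log2 fold change was 4.36 (SE 0.345, adjusted p = 3.37e-06), a 20.5-fold rise with a 95% interval of 12.2 to 34.3. Without number 6 in both groups it was 4.44 on the log2 scale. Cdkn2a ranked 11 of 11727 tested genes by fold change. Summed raw counts were 2304 over the EZH2i libraries and 89 over the DMSO libraries. Between same-numbered libraries the difference in log2 CPM, with 0.5 counts added, lay between 3.94 and 5.16, and it was above 0 for all 6 numbers. The counts add p16 and Arf transcripts, which share exons and cannot be split here.

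Cdkn2b (ENSMUSG00000073802.5, chromosome 4 from 89306299 to 89311039, minus strand) encodes p15, an INK4 protein known for its induction by TGF-beta. Its gene ends 11.6 kb from the upstream start of Cdkn2a. It ranged from 1.20 to 3.31 CPM in EZH2i libraries with a median of 1.60, against 0 to 0.476 CPM in DMSO libraries with a median of 0.134. The groups did not overlap, and DMSO libraries 1 and 5 held no count, which at 3 counts allows up to 0.139 and 0.130 CPM there. The log2 fold change was 3.63 (SE 0.554, adjusted p = 0.000486), and 3.97 without number 6 in both groups. Raw counts summed to 304 in EZH2i and 19 in DMSO, and their ratio after scaling for depth was 13.4, with a 95% interval of 8.41 to 22.5 that covers counting error only. No 75-base window, the length of the reads, was shared between the annotated transcripts of any pair of members, and no 25-base window either, so reads of Cdkn2a and Cdkn2b that match their transcripts exactly have no second home within the family.

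Cdkn2c (ENSMUSG00000028551.14, chromosome 4 from 109660876 to 109667189, minus strand) encodes p18. It stood at 44.4 to 94.4 CPM in EZH2i libraries with a median of 89.1, against 54.2 to 97.9 CPM in DMSO libraries with a median of 85.6. The groups overlapped, and the lowest library of each was the library numbered 6. Its log2 fold change was 0.02 (95% interval -0.37 to 0.40, adjusted p = 0.966), an interval whose upper end is a 1.32-fold rise, and without number 6 in both groups it was 0.05. The difference between same-numbered libraries was positive for 3 numbers and negative for 3.

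Cdkn2d (ENSMUSG00000096472.2, chromosome 9 from 21288410 to 21291407, minus strand) encodes p19, the INK4 protein with the highest transcript level in these cells. It stood at 53.2 to 122 CPM in EZH2i libraries with a median of 114, against 63.7 to 128 CPM in DMSO libraries with a median of 124. The EZH2i library was the lower of the pair for all 6 numbers, by 0.05 to 0.26 on the log2 scale. The log2 fold change was -0.12 (95% interval -0.56 to 0.32, adjusted p = 0.727). With the replicate number as a block it was -0.13 and was called (adjusted p = 0.0343), where 24.3% of all tested genes were called lower. Without number 6 in both groups it was -0.10 (adjusted p = 0.0804).

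Cdkn1a (ENSMUSG00000023067.14, chromosome 17 from 29090976 to 29100727, plus strand) encodes p21, a Cip/Kip protein best known as a p53 target. It ranged from 45.9 to 116 CPM in EZH2i libraries with a median of 56.6, against 28.5 to 44.9 CPM in DMSO libraries with a median of 36.4. The groups did not overlap, although the lowest EZH2i library and the highest DMSO library lay close together at 45.9 and 44.9 CPM. The log2 fold change was 0.83 (SE 0.208, adjusted p = 0.0130), a 1.78-fold rise with a 95% interval of 1.30 to 2.43. EZH2i library 6 stood at 116 CPM, against 54.3 ± 4.83 CPM in the other 5 EZH2i libraries (SD). The same-numbered difference was 1.46 for number 6 and 0.35 to 0.97 for numbers 1 to 5, all above 0. A gene model, AC167363.2, lies on the opposite strand of Cdkn1a, and no count of it was used here. Without number 6 in both groups, where 23.9% of all tested genes were called higher and 20.9% lower, the log2 fold change was 0.63 (adjusted p = 0.000122).

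Cdkn1b (ENSMUSG00000003031.14, chromosome 6 from 134920401 to 134925513, plus strand) encodes p27, which holds resting T cells out of the cycle and is controlled mainly by degradation of its protein. It stood at 47.6 to 148 CPM in EZH2i libraries with a median of 126, against 81.3 to 152 CPM in DMSO libraries with a median of 126. The medians were alike and the groups overlapped in full but for EZH2i library 6. The log2 fold change was -0.07 (95% interval -0.55 to 0.42, adjusted p = 0.876), and without number 6 in both groups it was 0.0064. Number 6 showed the widest same-numbered difference of Cdkn1b, -0.77, against -0.28 to 0.18 for numbers 1 to 5.

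Cdkn1c (ENSMUSG00000037664.13, chromosome 7 from 143458339 to 143461050, minus strand) encodes p57, the imprinted Cip/Kip member. It was scarce in both groups, at 0.186 to 1.13 CPM in EZH2i libraries with a median of 0.889, against 0.179 to 0.442 CPM in DMSO libraries with a median of 0.262. EZH2i libraries 1 to 5 held 20 to 29 counts each and lay above every DMSO library, which held 3 to 12. EZH2i library 6 held 6 counts and lay within the DMSO range. The log2 fold change was 1.51 (SE 0.392, adjusted p = 0.0156), and the same-numbered difference was 0.80 to 2.32 for numbers 1 to 5 and -0.05 for number 6. Without number 6 in both groups the log2 fold change was 1.65. Within number 6 the ratio of scaled counts was 1.04, with a 95% counting interval of 0.222 to 6.43, so a difference there was not detectable at this depth.

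**Figure D2:**
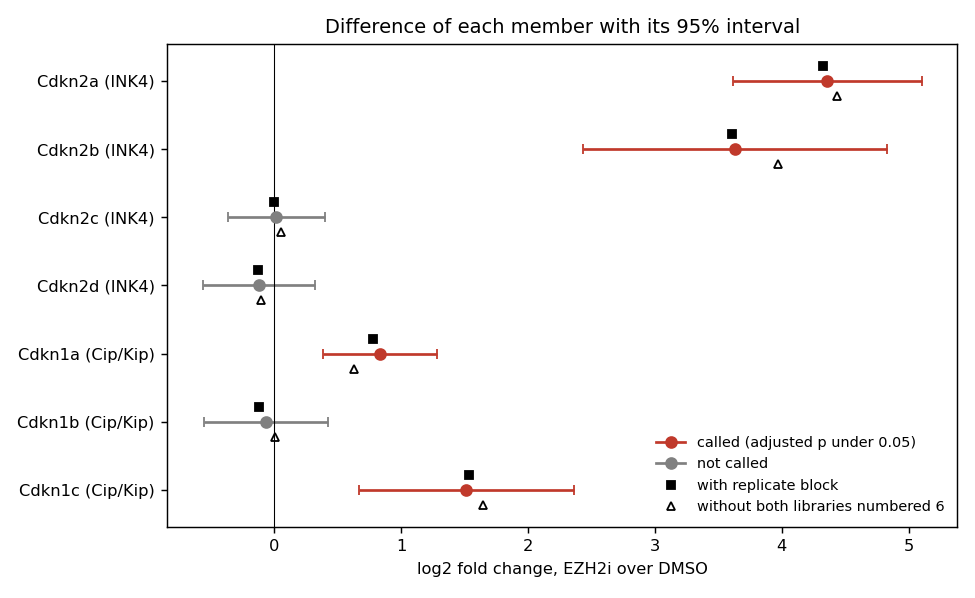
Log2 fold change of each member, EZH2i over DMSO (horizontal axis), with its 95% interval from the edgeR fit; squares show the fit with the replicate block and triangles the fit without both libraries numbered 6. Cdkn2a and Cdkn2b lie at 4.36 and 3.63 with intervals far above 0, Cdkn1a and Cdkn1c lie at 0.83 and 1.51, and the intervals of Cdkn2c, Cdkn2d and Cdkn1b span 0.

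**Figure D3:**
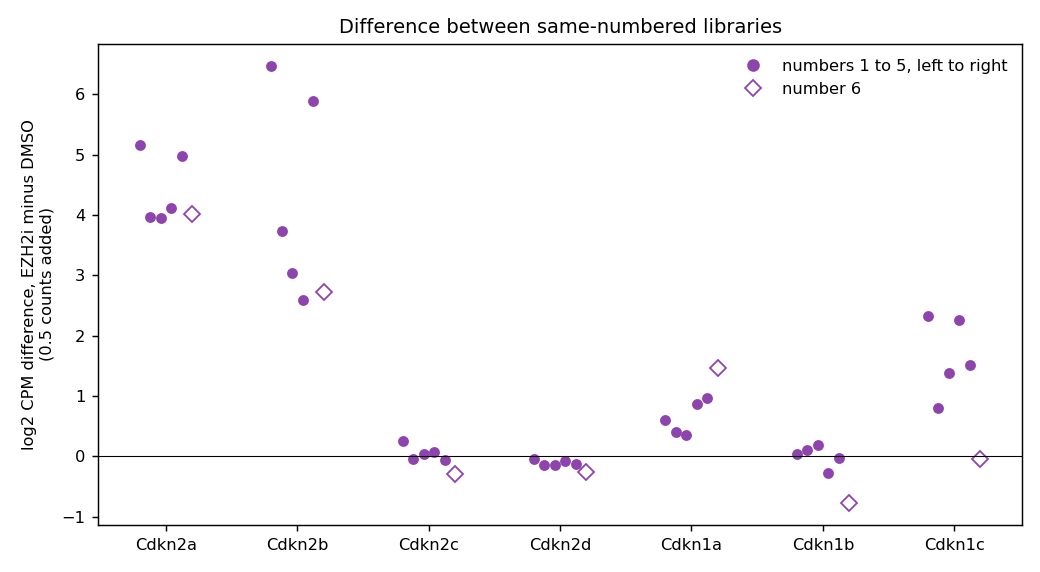
Difference in log2 CPM between same-numbered libraries, EZH2i minus DMSO with 0.5 counts added (vertical axis), for each member; filled points are numbers 1 to 5 and open diamonds number 6. All 6 differences are above 0 for Cdkn2a, Cdkn2b and Cdkn1a and below 0 for Cdkn2d. Number 6 is the highest for Cdkn1a and the lowest for Cdkn2c, Cdkn2d, Cdkn1b and Cdkn1c.

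The INK4 and Cip/Kip families were compared within each library after dividing CPM by the kilobases of merged exons of each gene in GENCODE M21, since levels of different genes compare only per length. On that scale Cdkn2d stood highest in both groups, at 67.0 ± 16.4 CPM per kilobase in EZH2i and 72.8 ± 15.9 in DMSO (SD, n = 6 each). Cdkn2c followed at 30.9 ± 7.11 in EZH2i and 30.5 ± 5.58 in DMSO, and Cdkn1b at 25.9 ± 7.91 in EZH2i and 27.1 ± 5.25 in DMSO. The ranges of Cdkn2c and Cdkn1b overlapped in both groups, and Cdkn2c was the higher in 6 of 6 EZH2i libraries and 5 of 6 DMSO libraries. Cdkn1a and then Cdkn2a came next in both groups by their means. Cdkn1b lay above Cdkn1a in 5 of 6 EZH2i libraries, by 7.71 ± 15.0 CPM per kilobase with overlapping ranges, so that order is unsettled in EZH2i. In DMSO it lay above in 6 of 6, by 16.8 ± 6.56, with ranges apart. The step between Cdkn1a and Cdkn2a was 6.23 ± 2.78 CPM per kilobase in EZH2i, where their ranges overlapped, and 9.63 ± 1.66 in DMSO, where they did not. At the bottom of the order, Cdkn2b at 1.32 ± 0.565 CPM per kilobase stood above Cdkn1c at 0.400 ± 0.162 in all 6 EZH2i libraries, while in DMSO their ranges overlapped.

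INK4 transcripts made up 71.0% ± 4.06 of the summed level per kilobase in EZH2i and 73.2% ± 2.91 in DMSO. The ranges overlapped, at 63.1% to 73.9% in EZH2i and 67.7% to 76.2% in DMSO. The INK4 sum overlapped too, at 73.8 to 121.8 CPM per kilobase in EZH2i and 62.2 to 116.4 in DMSO. The Cip/Kip sum did not overlap, at 43.0 to 47.3 CPM per kilobase in EZH2i and 29.8 to 41.9 in DMSO, although its nearest libraries lay close together. Within the INK4 sum, Cdkn2a and Cdkn2b together held 8.22% to 10.9% in EZH2i libraries 1 to 5 and 31.7% in EZH2i library 6, against 0.259% to 0.699% in DMSO libraries 1 to 5 and 2.59% in DMSO library 6. Cdkn2d and Cdkn2c thus made up most of the INK4 sum in every EZH2i library. The level of Cdkn1a over that of Cdkn1b, both per kilobase, was 0.397 to 0.618 in EZH2i libraries 1 to 5 and 3.12 in EZH2i library 6, against 0.252 to 0.464 in DMSO libraries 1 to 5 and 0.662 in DMSO library 6. The sum over all 7 members was 159 to 165 CPM per kilobase in EZH2i libraries 1 to 5 and 117 in EZH2i library 6, against 143 to 156 in DMSO libraries 1 to 5 and 92.0 in DMSO library 6. No p-value is given for these sums, which are scores over chosen members.

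**Figure D4:**
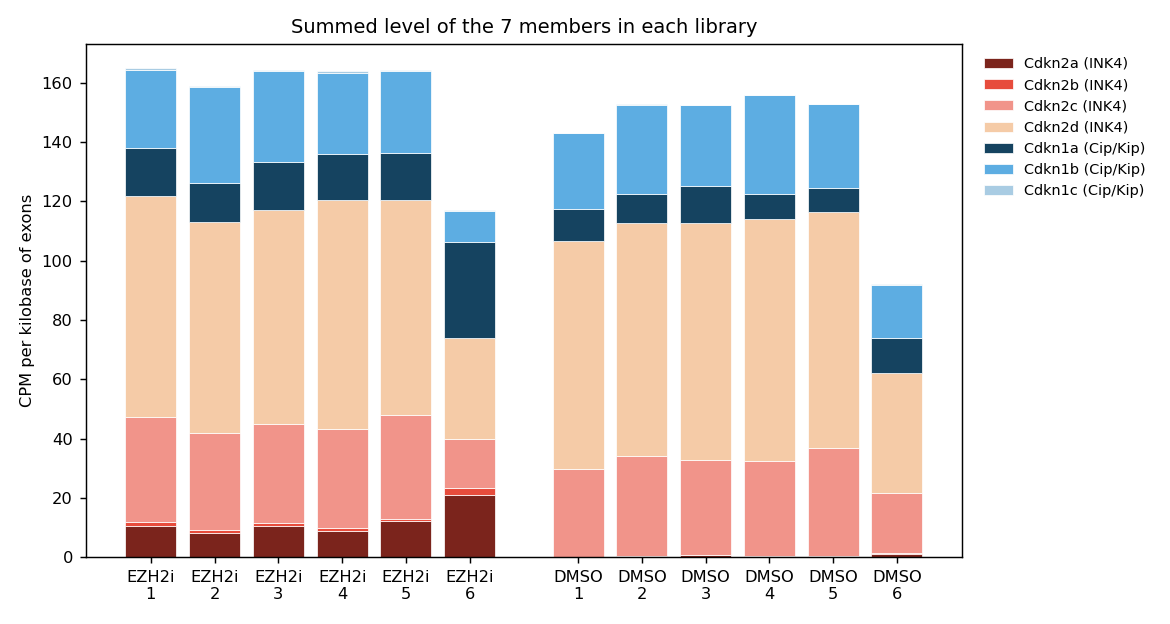
Level of the 7 members in CPM per kilobase of merged exons (vertical axis), stacked for each of the 6 EZH2i and 6 DMSO libraries, with INK4 members in warm colours and Cip/Kip members in blues. Cdkn2a is visible as a band in every EZH2i library and is almost absent from DMSO libraries, and library 6 has the lowest sum in each group.

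Neighbouring genes were examined to see whether a rise reached beyond the member, using the 3 nearest tested genes on each side. Around Cdkn2a and Cdkn2b no gene but the pair itself was called. Mtap, a methionine salvage enzyme 93.4 kb from Cdkn2a, stood at 51.4 ± 29.9 CPM in EZH2i and 54.1 ± 24.2 CPM in DMSO (SD, n = 6 each; log2 fold change -0.07, adjusted p = 0.907). On the other side Dmrta1, 368 kb from Cdkn2b, had 0.692 ± 0.377 CPM in EZH2i and 0.277 ± 0.167 CPM in DMSO (log2 fold change 1.26, adjusted p = 0.103). Dmrta1 was called higher with the block (adjusted p = 0.0114), as was Focad, 863 kb from Cdkn2a, at 0.16 on the log2 scale (adjusted p = 0.0377). The block called Caap1, as far as 5190 kb from Cdkn2b, lower (adjusted p = 0.00667). Beside Cdkn1a, the noncoding RNA Trp53cor1 (lincRNA-p21), itself a known p53 target 11.8 kb away, rose to 2.72 ± 0.476 CPM in EZH2i, against 1.48 ± 0.485 CPM in DMSO (log2 fold change 0.88, adjusted p = 0.0147). Ppil1, 150 kb from Cdkn1a, fell by 0.48 on the log2 scale (adjusted p = 0.0378). Of 36 distinct neighbours of the 7 members, 3 were called higher and 1 lower, in a background of 13.3% higher and 6.05% lower over all tested genes, the others called being Rnf11 near Cdkn2c and Gprc5a near Cdkn1b. With the block 11 of the 36 were called higher and 7 lower, beside 24.7% and 24.3% of all tested genes.

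Cdkn1c sits in an imprinted region of chromosome 7, and 11 other genes of that region were listed. Of these 5 were tested and none passed in either direction with edgeR, while 1 was higher and 1 lower at an unadjusted p under 0.05. Of those too low to test, Slc22a18 held 19 counts over the EZH2i libraries and 2 over the DMSO libraries. Igf2 held 13 and 0, H19 4 and 0, and Phlda2 0 and 2, while Kcnq1 and Ascl2 held none. Kcnq1ot1, the antisense RNA that silences part of the region on the paternal chromosome, stood at 7.66 ± 0.988 CPM in EZH2i and 7.84 ± 1.77 CPM in DMSO (log2 fold change -0.03, adjusted p = 0.915). Cd81, the member with the smallest p, stood 0.55 higher on the log2 scale (adjusted p = 0.0550). The block called 1 of the 5 higher and 2 lower, beside 24.7% and 24.3% of all tested genes, Cd81 being the one higher (adjusted p = 0.000144). Kcnq1ot1 is antisense to Kcnq1, and the strand setting of the counting is unknown. An antisense gene model, Gm44732, overlaps Cdkn1c, and no count of it was used here.

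**Figure D5:**
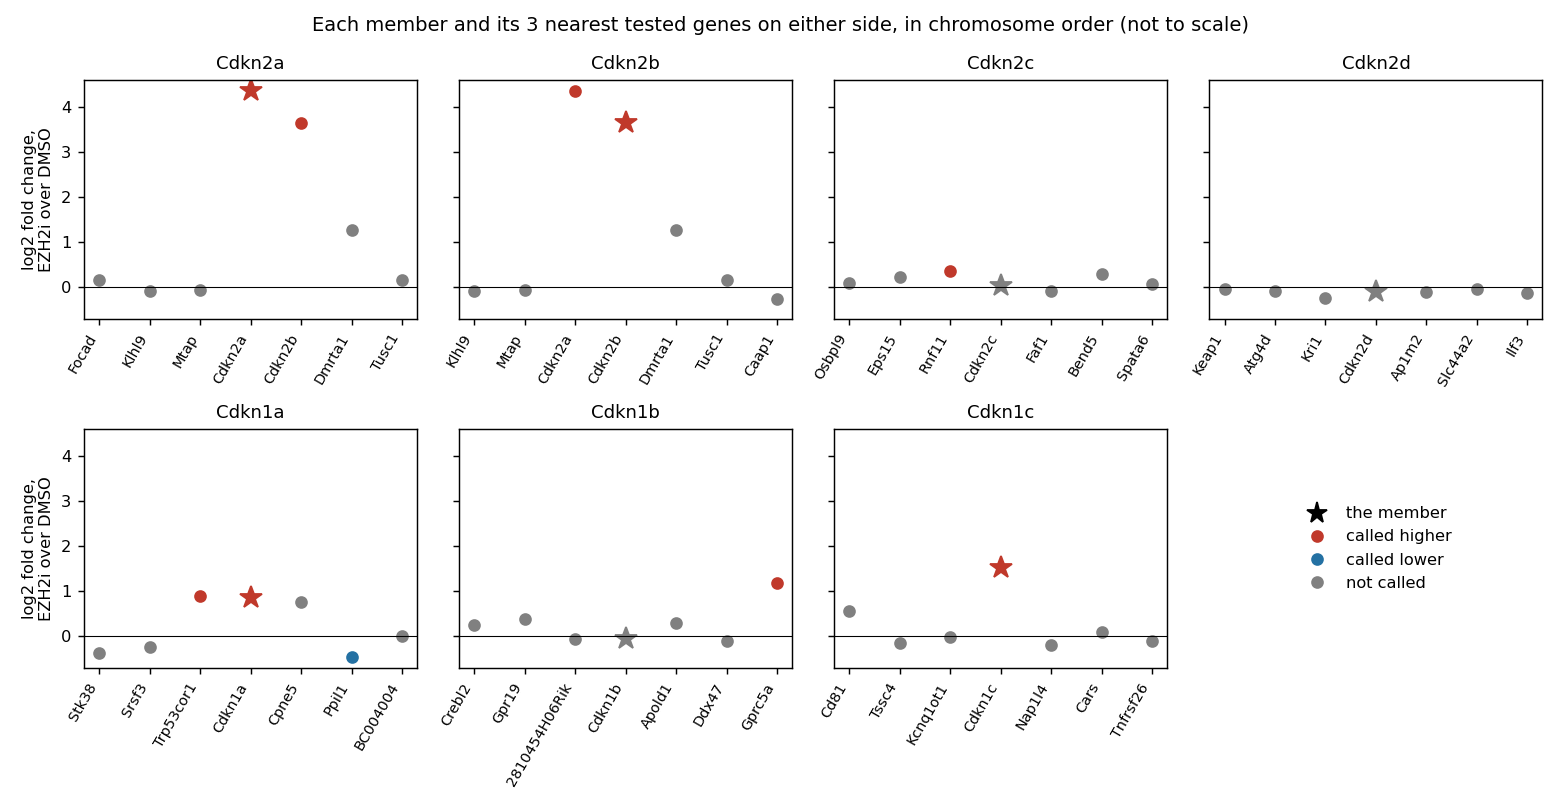
Log2 fold change, EZH2i over DMSO (vertical axis), of each member (star) and its 3 nearest tested genes on either side in chromosome order, not to scale; red is called higher, blue called lower and grey not called, without the block. Cdkn2a and Cdkn2b stand above their neighbours, and Trp53cor1 lies level with Cdkn1a.

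Genes with the most similar profiles over the 12 libraries were found by the smallest root-mean-square difference between log2 CPM profiles centred on each gene's mean. Nearest to Cdkn2a were Igf2bp3, an RNA-binding protein of fetal tissue (0.511), Dlk1, an imprinted Notch-like membrane protein (0.531), and Myof (0.533), against a median of 2.21 over all tested genes. Igf2bp3 averaged 30.4 ± 3.30 CPM in EZH2i and 2.40 ± 0.555 CPM in DMSO. Nearest to Cdkn2b were the tight-junction protein Tjp1 (0.482), the uridine phosphorylase Upp1 (0.510) and the ETS factor Erg (0.555), against a median of 1.83. Nearest to Cdkn1a were Id2, an inhibitor of E proteins (0.159), the serpin Serpina3g (0.162) and Tmbim1 (0.168), against a median of 0.586, and nearest to Cdkn1c were Lsr (0.276), Zbtb10 (0.287) and Rab4a (0.299), against 0.869.

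The members that were not called had close companions that were likewise not called. The nearest were Knstrn, a spindle protein (0.0749), for Cdkn2c, Bin2 (0.0697) for Cdkn2d, and Pydc3 (0.0945) for Cdkn1b. Points in these profiles share the same 12 libraries and their scaling, so the distances describe these libraries. The difference between the groups is part of each distance. Companions therefore have a like fold change by construction, and a shared call or lack of one supports nothing. The medians over all tested genes likewise depend on the size of each member's own difference.

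Cdk4 and Cdk6, the kinases that INK4 proteins bind, and the D-type cyclins were not called where they were tested. Of 5 genes 4 were tested and none passed in either direction with edgeR, nor at an unadjusted p under 0.05 (median log2 fold change 0.03, against -0.01 over all tested genes). Cdk4 had the smallest p, at 243 ± 48.0 CPM in EZH2i and 282 ± 44.7 CPM in DMSO (log2 fold change -0.22, adjusted p = 0.276). The block called it lower (adjusted p = 0.00402). Ccnd1 was too low to test, at 0.557 ± 0.179 CPM in EZH2i and 0.0774 ± 0.0479 CPM in DMSO. It held 93 counts over the EZH2i libraries and 10 over the DMSO libraries. All 6 EZH2i libraries lay above all 6 DMSO libraries, a separation that 7.5% of tested genes showed in this direction. That share covers only genes that passed the filter, so it is not a like background for Ccnd1, which did not.

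Among partners of Cip/Kip proteins, 2 of 6 tested genes fell and none rose, both of them E-type cyclins that drive entry into S phase (median of the list -0.25; 6.05% of all tested genes were called lower). Ccne2 fell to 28.2 ± 6.30 CPM in EZH2i, against 45.6 ± 14.4 CPM in DMSO (log2 fold change -0.69, adjusted p = 0.0211), and Ccne1 to 66.3 ± 5.06 CPM in EZH2i, against 80.5 ± 6.53 CPM in DMSO (-0.28, adjusted p = 0.0146). With the block 5 of the 6 were called lower, beside 24.3% of all tested genes, and without number 6 in both groups 5 were, beside 20.9%. Among 12 proliferation markers 3 fell and none rose, beside 6.05% of all tested genes called lower: Pcna, the sliding clamp of DNA polymerases (log2 fold change -0.39, adjusted p = 0.00190), and the helicase subunits Mcm5 (-0.32, adjusted p = 0.00601) and Mcm7 (-0.23, adjusted p = 0.00629). The 12 markers summed to 5937 ± 123 CPM in EZH2i and 6767 ± 144 CPM in DMSO. With the block 9 of the 12 were called lower, beside 24.3% of all tested genes.

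Pocket proteins and E2F factors, which lie downstream of the kinases, were not called by edgeR in either direction in 13 tested genes, of which 2 were lower at an unadjusted p under 0.05 (median log2 fold change -0.12). E2f2 had the smallest p, at 193 ± 38.4 CPM in EZH2i and 268 ± 50.7 CPM in DMSO (log2 fold change -0.47, adjusted p = 0.0577), and the block called E2f2 lower (adjusted p = 2.7e-06). With the block 5 of the 13 were called lower and none higher, beside 24.3% and 24.7% of all tested genes. Without number 6 in both groups 4 were lower and 3 higher, shares near the 20.9% and 23.9% of all tested genes.

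On the Arf axis, 1 of 4 tested genes rose, the p53 regulator Mdm4 (log2 fold change 0.26, SE 0.0717, adjusted p = 0.0232), beside 13.3% of all tested genes called higher. Mdm2, the ligase that Arf binds, had 89.4 ± 3.80 CPM in EZH2i and 88.2 ± 1.27 CPM in DMSO (adjusted p = 0.819). Trp53 stood at 150 ± 22.5 CPM in EZH2i and 178 ± 26.4 CPM in DMSO (adjusted p = 0.153). The block called Trp53 lower (adjusted p = 0.00212).

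Among 12 tested regulators of the Cdkn2a locus 3 rose and none fell, beside 13.3% of all tested genes called higher and 6.05% lower. Id1, also listed, was too low to test and held 60 counts over the EZH2i libraries and 4 over the DMSO libraries. Bmi1, the Polycomb subunit known for repressing Cdkn2a, rose to 129 ± 10.5 CPM in EZH2i, against 51.0 ± 6.02 CPM in DMSO (log2 fold change 1.34, SE 0.0843, adjusted p = 8.38e-07). Jarid2, an accessory subunit of PRC2, rose by a log2 fold change of 0.43 (adjusted p = 0.00227), and the transcription factor Ets2, an activator of p16 in human fibroblasts, by 0.38 (adjusted p = 0.0124). Ezh2, the gene of the inhibited enzyme, stood at 234 ± 26.6 CPM in EZH2i and 278 ± 29.4 CPM in DMSO (adjusted p = 0.0833; with the block, lower at adjusted p = 0.000757). With the block 4 of the 12 were called higher and 3 lower, beside 24.7% and 24.3% of all tested genes. Without number 6 in both groups 6 were higher and 3 lower, beside 23.9% and 20.9%.

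Among genes that control p27, 2 of 6 tested fell and none rose, beside 6.05% of all tested genes called lower. Both were components of the ligase that degrades p27: Skp2 (log2 fold change -0.38, adjusted p = 0.0326) and its cofactor Cks1b (-0.25, adjusted p = 0.0466). With the block 3 of the 6 were called lower and 1 higher, beside 24.3% and 24.7% of all tested genes.

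Defining markers of CD8+ T cells were abundant in all 12 libraries. The 5 markers Cd8a, Cd8b1, Cd3d, Cd3e and Cd3g summed to 2216 to 3346 CPM in EZH2i and 3001 to 4080 CPM in DMSO. Library 6 was lowest in both groups. Of these 5, Cd8a and Cd3g fell (adjusted p = 0.00129 and 0.0488), beside 6.05% of all tested genes called lower. With the block Cd8b1 was called lower too (log2 fold change -0.36, adjusted p = 0.000208). Of the CD4 T cell markers, Cd4 averaged 0.0984 CPM in EZH2i and 0.0887 CPM in DMSO. Foxp3, the other marker of that list, had 7.818 ± 1.438 CPM in EZH2i and 6.015 ± 1.989 CPM in DMSO. The 7 myeloid markers summed to 4.86 to 14.6 CPM in EZH2i and 1.73 to 7.32 CPM in DMSO. Nearly all of that was Itgam, which activated CD8+ T cells also express, with 11.7 ± 3.69 CPM in EZH2i and 4.75 ± 1.76 CPM in DMSO. Csf1r and Lyz2 averaged 0.0144 and 0.283 CPM in EZH2i, against 0.00876 and 0.194 CPM in DMSO. B cell markers summed to 14.8 to 21.8 CPM in EZH2i and 19.2 to 25.2 CPM in DMSO, nearly all of it Cd79b, which the block called lower (adjusted p = 0.00927). Of NK cell markers Ncr1 averaged 0.0455 CPM in both groups, while Klrb1c averaged 5.10 CPM in EZH2i and 0.852 CPM in DMSO. Eomes, which CD8+ T cells also express, made up most of the NK sum of 92.6 to 304 CPM in EZH2i and 45.3 to 121 CPM in DMSO. Dendritic markers summed to 1.15 to 3.69 CPM in EZH2i and 0.179 to 1.58 CPM in DMSO, mostly Itgax. Stromal markers, nearly all Pecam1, summed to 60.2 to 180 CPM in EZH2i and 88.0 to 195 CPM in DMSO. Of the 4 erythroid markers Hbb-bs, Hba-a1 and Alas2 had no count in any library. Outside the CD8+ T cell list, Klrb1c, Eomes, Itgam and Itgax were called higher and no marker lower, beside 13.3% and 6.05% of all tested genes. The block also called Foxp3 and Col1a1 higher (adjusted p = 0.00999 and 0.0110) and Pecam1 lower (adjusted p = 0.0249). The part of the markers that moved in the members' values was not tested.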

How the data were processed

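Gene counts were analysed for 12 libraries, 6 EZH2i and 6 DMSO, grouped by the treatment in the labels. Per the labels' protocols, libraries were made with a stranded TruSeq mRNA kit and sequenced as 75-base single-end reads. The deposited values are raw counts per gene symbol. Per the submitters' processing notes, reads were processed with TopHat2 2.1.1, featureCounts, SAMtools 1.9, Trimmomatic 0.38 and FastQC 0.11.7 on GRCm38 (mm10). The annotation, the strand setting and the handling of multiply mapped reads were not given in the sources used here, so overlapping and antisense genes are uncertain.

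Counts were filtered with filterByExpr, which left 11727 of 24421 genes, scaled by TMM and tested two-sided with the quasi-likelihood test of edgeR 4.0.16 in R 4.3.3, on the group alone. A gene was called at an adjusted p under 0.05. SE is the size of the log2 fold change divided by the square root of F. Same-numbered differences used 0.5 added counts, and profiles a prior count of 2. DESeq2 1.42.0 was an alternative, besides other scalings, filters, the replicate block and left-out libraries. The test was run on simulated counts with known changes beforehand. Positions and exon lengths come from GENCODE M21 and promoters from RefSeq for GRCm38.p6.

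The titles number the libraries 1 to 6 in each group. Across genes, the deviations from the group mean of 2 libraries with 1 number correlated at 0.213 to 0.847, all over the limit of 0.1 set for pairing. Library 6 stands apart in both groups and shifts every deviation from the group mean, so passing this limit does not settle pairing. The same-numbered libraries were each other's best match for numbers 2, 4 and 6, and were not for numbers 1, 3 and 5. The calls in the text still come from the model with the group alone, and the block is an alternative given beside the calls it changes. The meaning of a number is not in the labels. Without number 6 the lowest correlation was 0.0371, so pairing is unsettled for numbers 1 to 5. Every pair of libraries within a group differed beyond sampling noise (chi-square per degree of freedom at least 4.94), so none was counted as a duplicate. Intervals on counts cover counting error only. The 7 members, the gene lists, the neighbour rule and the alternatives were chosen with earlier results of these data known. Besides the members, up to 4 called genes of each list are named, or the gene with the smallest p, with the 3 nearest neighbours on each side and the 3 nearest profiles. A few further list genes (Ccnd1, Mdm2, Trp53, Ezh2 and Id1) are named beyond this rule, with their values known.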

Additional observations from a re-analysis of the deposited data

Results flagged for a closer look

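Over the 7 members and the INK4 share, 16 sets of 6 libraries were examined for a highest or lowest library whose gap to the next exceeded 0.625 of the whole range. Chance gives this in about 1 of 20 sets. It was met 9 times, each time by the library numbered 6.

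In EZH2i, library 6 stood apart as the highest for Cdkn2a, at 24.6 CPM, and for Cdkn1a, at 116 CPM. It stood apart as the lowest for Cdkn2c at 44.4 CPM, Cdkn2d at 53.2 CPM, Cdkn1b at 47.6 CPM and Cdkn1c at 0.186 CPM. In DMSO, library 6 stood apart as the lowest for Cdkn2d, at 63.7 CPM. The INK4 share of the summed level per kilobase was lowest in library 6 of each group, at 63.1% in EZH2i and 67.7% in DMSO. These sets share their libraries and are not independent.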

How the results depend on the processing

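The rises of Cdkn2a, Cdkn2b, Cdkn1a and Cdkn1c kept their direction and stayed called under every alternative that gave a value; Cdkn1c was not tested with at least 1 CPM required in 6 libraries. Leaving out a library in turn gave log2 fold changes of 4.12 to 4.67 for Cdkn2a, 3.35 to 4.24 for Cdkn2b, 0.58 to 0.91 for Cdkn1a, 1.39 to 1.72 for Cdkn1c, -0.082 to 0.14 for Cdkn2c, -0.25 to 0.0129 for Cdkn2d and -0.16 to 0.10 for Cdkn1b. The sign of the members that were not called was unsettled: that of Cdkn2c was -0.0019 with DESeq2 and -0.0012 with the replicate block, and that of Cdkn1b 0.0064 without number 6 in both groups, 0.0955 without EZH2i library 6 and 0.0008 without DMSO library 4. Cdkn2d turned positive without EZH2i library 6. Cdkn2d was called with the replicate block, at -0.13, and the block changed the call of no other member.

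The count of called genes was 5741 with the replicate block (2892 higher, 2849 lower) and 5270 without number 6 in both groups (2815 higher, 2455 lower), and 1732 to 4079 leaving out a library (1297 to 2262 higher, 435 to 1817 lower). The highest of these, 4079 called with 1817 lower, came without EZH2i library 6, and 435, 439 and 448 lower came without EZH2i libraries 3, 4 and 5. Genes called lower numbered 347 with upper-quartile scaling and 1108 with DESeq2. Of all calls, 83.8% were higher under upper-quartile scaling, 50.4% under the block and 68.7% under TMM. The median log2 fold change of all genes was 0.05 under upper-quartile scaling and -0.01 under TMM.

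List members called lower are given with the block, then without number 6 in both groups. They numbered 5 and 5 for Cip/Kip partners, 5 and 4 for pocket proteins and E2F, and 9 and 8 for proliferation markers. Locus regulators gave 3 and 3, and the imprinted region 2 and 2. The list of Cdk4, Cdk6 and D-type cyclins gave 1 and 1, as did the Arf axis. Those called higher numbered 1 and 1 for p27 control and for the imprinted region. Without number 6 they were 6 for locus regulators and 3 for pocket proteins and E2F. INK4 members called lower numbered 1 with the block. The cause of these changes was not tested.

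The mean INK4 share was 52.3% in EZH2i and 54.9% in DMSO without length scaling, 49.8% in EZH2i and 45.3% in DMSO without Cdkn2d, where the order turned round, and 85.1% in EZH2i and 90.5% in DMSO without Cdkn1b. Leaving out a library, an alternative chosen after seeing the data, gave 70.5% to 72.6% in EZH2i and 72.6% to 74.3% in DMSO. Depth limits Cdkn2b and Cdkn1c, with 19 and 38 counts over the DMSO libraries.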
